A study of Mus musculus with 8 samples.

Results

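The transforming growth factor beta (TGF-beta) superfamily was examined in mouse kidney RNA after ischemia-reperfusion (I/R), an injury made by halting the flow of blood to the organ and letting it return. The genes were taken by symbol from the deposited count table: the TGF-beta, BMP, activin, inhibin and GDF ligands, their receptors, the extracellular proteins Nog, Grem1, Fst, Fstl1, Fstl3, Bmper and Ltbp1 to Ltbp4, the Smad proteins and the Smurf ubiquitin ligases. Among 25239 genes, 62 matched these names, and the 55 with a total of at least 40 counts over the 8 libraries are the members. The 7 below that minimum were Gdf1, Gdf2, Bmp10, Inhbc, Inhbe, Gdf9 and Acvr1c. Just below the minimum stood Acvr1c with 27 counts, and just above it Gdf7 with 54 and Gdf6 and Grem1 with 57 each. The symbol pattern for BMP genes also takes in Bmp1, a protease that processes procollagen, and Bmp2k, a kinase, which are neither ligands nor receptors.

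Most ligands of the superfamily are secreted dimers that bind pairs of type I and type II receptor kinases. Gdf15 is an exception and signals through the receptor GFRAL. TGF-beta and activin receptors phosphorylate Smad2 and Smad3, BMP receptors phosphorylate Smad1, Smad5 and Smad9, and both kinds then act with Smad4 in the nucleus, while Smad6, Smad7 and the Smurf proteins restrain the signal. In the kidney TGF-beta is best known as a driver of fibrosis after injury, and BMP7 as a factor needed for nephron formation in the embryo.

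The series has 4 libraries with the genotype label WT, called control 1 to 4 here, and 4 labelled as myeloid-specific FoxO1 knockouts, called knockout 1 to 4. All 8 are from kidney after I/R. Per the labels' protocols, the knockout mice were Lyz2-CreERT2 FoxO1flox/flox animals aged 8 to 10 weeks given 5 daily doses of tamoxifen (75 mg per kg body mass). The remaining left kidney was clamped for 35 minutes after the right one had been taken out. Lyz2 is active in macrophages, monocytes and neutrophils, and CreERT2 is a recombinase that works only in the presence of tamoxifen. The same protocol text stands with all 8 samples; whether the controls carried Cre or floxed alleles and received tamoxifen, and what the strain and the time from reperfusion to collection were, was not given in the sources used here. The tissue was digested with collagenase and the RNA is that of the whole digest, so a difference in a gene can come from the number of cells of a type or from the RNA per cell, which cannot be told apart. Separate animals are named nowhere in the labels, and p-values therefore reflect only how these samples vary, which may be technical.

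The libraries held 29044405 to 35530421 counts. The targeted gene Foxo1 stood at 33.0 to 34.5 CPM (counts scaled to a common library size) in controls and 39.3 to 42.9 CPM in knockouts, a log2 fold change of 0.29 that did not pass the test (edgeR adjusted p = 0.0647). DESeq2 (adjusted p = 0.00611) and limma with sample weights (0.0453) called Foxo1 higher in the libraries labelled knockout. Other kidney cells also express Foxo1, so its level in whole tissue checks no deletion in myeloid cells. Lyz2 was far lower in control 1 (2.28 CPM) than in the other controls (27.3 to 50.4 CPM). It was also far lower in knockout 3 (0.367 CPM) than in the other knockouts (25.4 to 46.9 CPM). The counts of changed genes below are therefore also given without these 2 libraries. The sum of 8 macrophage markers, Lyz2 among them, was 253 CPM in control 1 (175 to 313 over controls). In knockout 3 it was 202 CPM (202 to 349 over knockouts). The sum of 8 neutrophil markers was the highest of all in control 1 (177 CPM) and the lowest in knockout 3 (6.09 CPM). The cause of the low Lyz2 was not tested.

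Of the 55 members 51 had enough counts to be tested. In the knockout 7 rose (Tgfb2, Gdf10, Ltbp4, Fstl3, Bmp7, Acvrl1 and Tgfbr3), 5 fell (Gdf15, Inhbb, Bmp6, Acvr1 and Smad1) and 39 did not pass an adjusted p of 0.05 in edgeR's quasi-likelihood test. These 12 are 23.5% of the tested members, where 12.7% of all 15000 tested genes passed (6.45% higher and 6.28% lower). Tgfb2 rose most, 10.9-fold, and Gdf15 fell most, 4.15-fold. The groups did not overlap in CPM for 14 members (27.5%), 9 higher and 5 lower, against 21.7% of all genes tested (11.1% higher and 10.6% lower). The median log2 fold change was 0.02 over the tested members and -0.01 over all tested genes. The changes thus lay on both sides of no change, and within single roles some members rose and others fell.

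**Figure D1:**
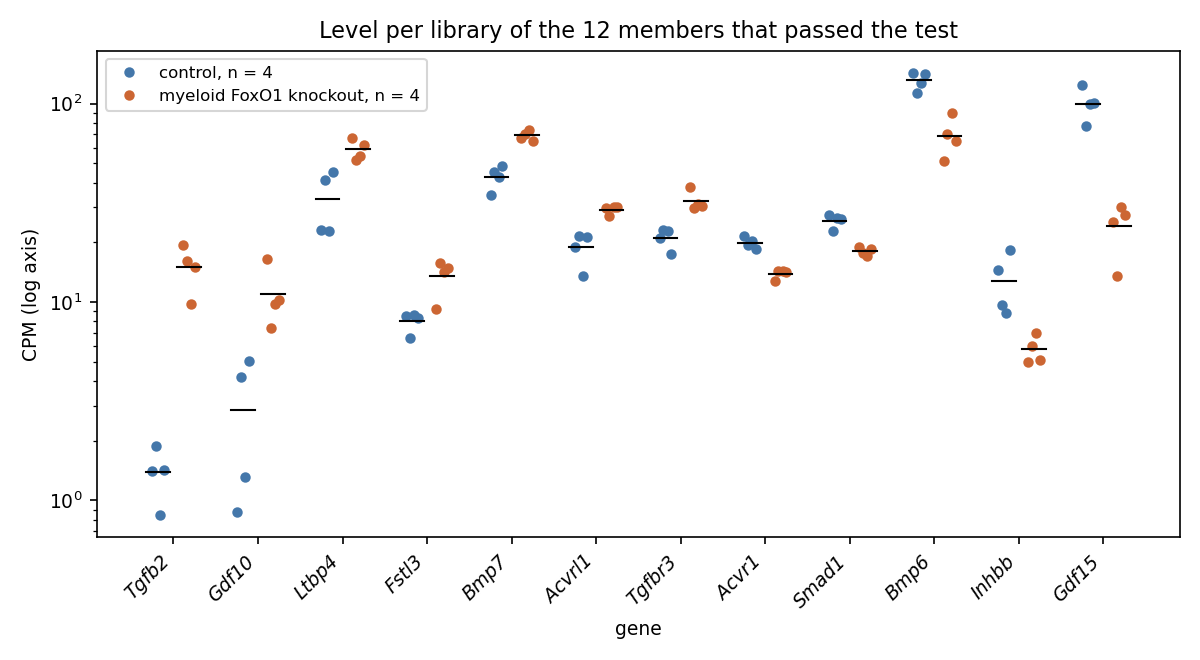
Level in CPM (log axis) of the 12 members that passed the test, ordered by fold change. Each point is 1 library, blue for the 4 controls and orange for the 4 knockouts, and each line is the mean of a group. The groups do not overlap for any of the 12 genes: Tgfb2 is at 0.842 to 1.88 CPM in controls and 9.73 to 19.3 CPM in knockouts, Gdf15 at 76.9 to 124 and 13.6 to 30.3 CPM.

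Tgfb2, Bmp7, Gdf15 and Bmp6 passed in each of the 18 alternative settings tried, and the call of the other 8 was lost in at least 2 of them. Without control 1 and knockout 3 together, 2 members rose (Tgfb2 and Bmp7) and 3 fell (Gdf15, Bmp6 and Inhbb), where 6.95% of all genes tested passed. The count that rose was 4 without control 3 (6.96% of all genes passed, in either direction) and 3 without knockout 2 (6.92%), knockout 3 (7.5%) or knockout 4 (5.98%). The count that fell was 3 without knockout 2 or knockout 4. It was 8 once a trend over gene length (17.3% of all genes) or over length and GC content (17.9%) was removed. Without control 1 (10.4%), control 2 (13.1%), control 4 (9.82%) or knockout 1 (11.5%), 6 to 8 rose and 5 to 7 fell. With other size factors (12.7%), no count filter (9.23%), a filter of 1 CPM in 4 libraries (14%) or halved counts (13.7%) the counts were 7 and 5 as before, and DESeq2 (20.7%) called 10 and 7, limma with sample weights (19%) 10 and 5.

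Markers of several kidney cell types differed between the same groups, and the members' changes stand beside them. Over all tested genes edgeR called 6.45% higher and 6.28% lower. Of 8 injured tubule markers 7 fell (among them Havcr1 and Krt20), and their summed level was 3919 to 6385 CPM in controls and 998 to 1332 CPM in knockouts. Of 8 loop of Henle markers 6 rose (2260.1 to 3897 and 6965 to 7852 CPM), of 8 distal tubule and collecting duct markers 6 rose (535 to 1438 and 2116 to 2865 CPM), of 8 proximal tubule markers 3 rose (1975 to 5740.2 and 4809 to 6713 CPM), of 8 podocyte markers 5 rose (401 to 528 and 599 to 679.7 CPM) and of 8 endothelial markers 3 rose (204 to 416 and 393 to 493 CPM). Abundant genes weigh most in such sums. By mean, Umod held 2629.7 of 3135 CPM of the loop of Henle sum in controls and 5549 of 7397 in knockouts. In controls Havcr1 held 2286 of 5042 CPM of the injured tubule sum and Slc34a1 1589 of 3833 of the proximal tubule sum. Of 7 tested neutrophil markers 6 fell in edgeR and in limma and 4 in DESeq2 (27.7 to 177 and 6.09 to 16.7 CPM), with Retnlg, Mmp8 and Camp at 0 in some libraries. The 177 CPM is control 1, and the other controls had 27.7 to 51.3 CPM. Of 8 fibroblast and myofibroblast markers edgeR called 0 (2 at an unadjusted p under 0.05, 1 called higher by DESeq2 and 1 by limma), at 205 to 543 and 432 to 685 CPM, and of 8 macrophage markers edgeR called 0 (3 at an unadjusted p under 0.05; DESeq2 called 1 higher and 2 lower, limma 1 higher), at 175 to 313 and 202 to 349 CPM. Of 5 liver markers Serpina1a rose (mean 28.3 CPM in controls and 135 in knockouts). The other 4 did not pass, Alb among them (mean 11.7 and 10.1 CPM). The sum of the 5 was 57.7 to 132 and 130.3 to 340.2 CPM. Of 4 adrenal markers Cyp11b1 and Cyp11b2 were at 0 in every library. Cyp21a1 had 0 to 18 counts per library and was not tested. Star had 87 to 167 and did not pass (log2 fold change 0.23). The part of these cell types in the members' changes was not tested.

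Upstream sequences of the ligand genes are shown first, because the ligands hold the largest changes in both directions. The 250 bases before each RefSeq gene start (assembly GRCm38.p6, not the mm39 build named for the reads) were available for 40 of the 55 members, in 49 windows. Both strands were searched for the FoxO site GTAAACA, the cyclic AMP response element TGACGTCA, the E-box CACGTG, the AP-1 site TGANTCA, the Smad palindrome GTCTAGAC and the BMP-responsive GGCGCC; no match shared bases with a match to another motif in the sequences printed here. The E-box was in 5 of 49 member windows (10.2%) and in 6.02% of all 32851 windows, and the GGCGCC motif in 10 of 49 (20.4%) and in 9.59% of all. The letters of the FoxO site, the AP-1 site and the Smad palindrome were found in none of the 49 windows (3.17%, 6.75% and 0.167% of all), which says only that those letters are not in these windows. Over all tested members 23.5% passed the test and over all tested genes 12.7%, and a link of motifs to changes was not tested. Of the 5 genes with an E-box 3 passed, in both directions: Tgfb2 rose, and Gdf15 and Bmp6 fell. Their E-boxes, in capitals within 30 bases on the strand of the gene, are
Tgfb2, chr1:186706023-186706052, minus strand: gttgaaggcaaaCACGTGgtttggggagca
Gdf15, chr8:70632161-70632190, minus strand: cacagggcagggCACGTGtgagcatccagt
Bmp6, chr13:38345577-38345606, plus strand: ttcagggcagcgCACGTGtgcagactgcga
Bmp4, chr14:46390840-46390869, minus strand: tagtacctcttgCACGTGgtccccaggtga
Acvr1b, chr15:101174006-101174035, plus strand: ctcccgggagctCACGTGccggcgcggagc
The E-box of Tgfb2 lies 51 to 46 bases before the gene start, that of Gdf15 83 to 78, that of Bmp6 127 to 122, that of Bmp4 188 to 183 and that of Acvr1b 54 to 49. Bmp4 and Acvr1b did not pass the test. These windows lie before a RefSeq gene start, but exons annotated by GENCODE reach into several of them: they cover 250 of the 250 bases for Bmp6, 196 for this Gdf15 start, 167 for Tgfb2, 5 for Acvr1b and 0 for Bmp4. For the other ligands that changed and have a window with 0 such bases, and for the farther upstream of the 2 Gdf15 starts, the whole 250 bases follow in lower case, since they hold none of the 6 motifs.
Gdf10, chr14:33923337-33923586, plus strand: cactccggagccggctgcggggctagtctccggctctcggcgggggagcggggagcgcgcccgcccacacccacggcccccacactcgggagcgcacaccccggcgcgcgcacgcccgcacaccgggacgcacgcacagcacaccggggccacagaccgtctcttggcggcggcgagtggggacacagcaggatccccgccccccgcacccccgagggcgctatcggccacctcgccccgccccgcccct
Inhbb, chr1:119422249-119422498, minus strand: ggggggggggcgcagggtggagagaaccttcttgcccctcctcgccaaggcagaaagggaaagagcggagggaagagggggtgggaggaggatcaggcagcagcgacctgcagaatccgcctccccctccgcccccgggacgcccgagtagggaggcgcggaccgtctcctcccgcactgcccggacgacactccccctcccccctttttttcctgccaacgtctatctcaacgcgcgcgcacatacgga
Gdf15, chr8:70632457-70632706, minus strand: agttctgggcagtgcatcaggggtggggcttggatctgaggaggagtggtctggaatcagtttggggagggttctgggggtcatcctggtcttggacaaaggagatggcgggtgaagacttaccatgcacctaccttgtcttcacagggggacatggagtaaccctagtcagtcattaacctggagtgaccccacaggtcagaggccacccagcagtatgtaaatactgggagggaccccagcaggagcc
Of these 3 genes Gdf10 rose and Inhbb and Gdf15 fell.

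Among the 3 TGF-beta ligands, Tgfb2 was the one that changed. In controls 1 to 4 it stood at 1.41, 1.88, 0.842 and 1.43 CPM, and in knockouts 1 to 4 at 19.3, 16.1, 9.73 and 15.1 CPM. Every knockout lay far above every control, with 30 counts in the lowest library and 557 in the highest. Control and knockout means were 1.39 ± 0.424 and 15.1 ± 3.98 CPM (SD, n = 4 each), and edgeR gave a log2 fold change of 3.44, an SE of 0.30 and an adjusted p of 3.61e-04. Over the 18 alternatives the log2 fold change ran from 3.26 to 3.62 and the adjusted p from 5.02e-28 to 0.00379. An annotated antisense gene, Gm29491, overlaps 80 bases of Tgfb2 on GRCm38, and the library kit does not separate strands. Tgfb1, the main isoform in most adult tissues, stood at 54.0, 52.5, 36.7 and 55.1 CPM in controls and 41.9, 36.4, 39.9 and 44.9 CPM in knockouts. Control 3 fell within the range of the knockouts and the other controls lay above it, and the difference did not pass (a log2 fold change of -0.28 with an SE of 0.14 and an adjusted p of 0.224). Tgfb3 was at 3.03 to 5.67 CPM in controls and 2.49 to 3.92 CPM in knockouts (a log2 fold change of -0.28 with an SE of 0.27 and an adjusted p of 0.541), with overlapping groups.

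Compared per length of transcript, as CPM per kilobase, Tgfb1 remained the most abundant isoform in all 8 libraries, and Tgfb2 moved from the rarest to the second. Tgfb2 made up 0.899% to 1.42% of the summed CPM per kilobase of the 3 genes in controls and 8.76% to 15.4% in knockouts. Tgfb1 made up 92.9% to 95.0% in controls and 79.8% to 85.8% in knockouts. The sum of the 3 was 24.3 ± 4.26 CPM per kilobase in controls and 22.7 ± 2.02 in knockouts (SD, n = 4 each), with overlapping groups. These shares describe the libraries and were not tested.

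**Figure D2:**
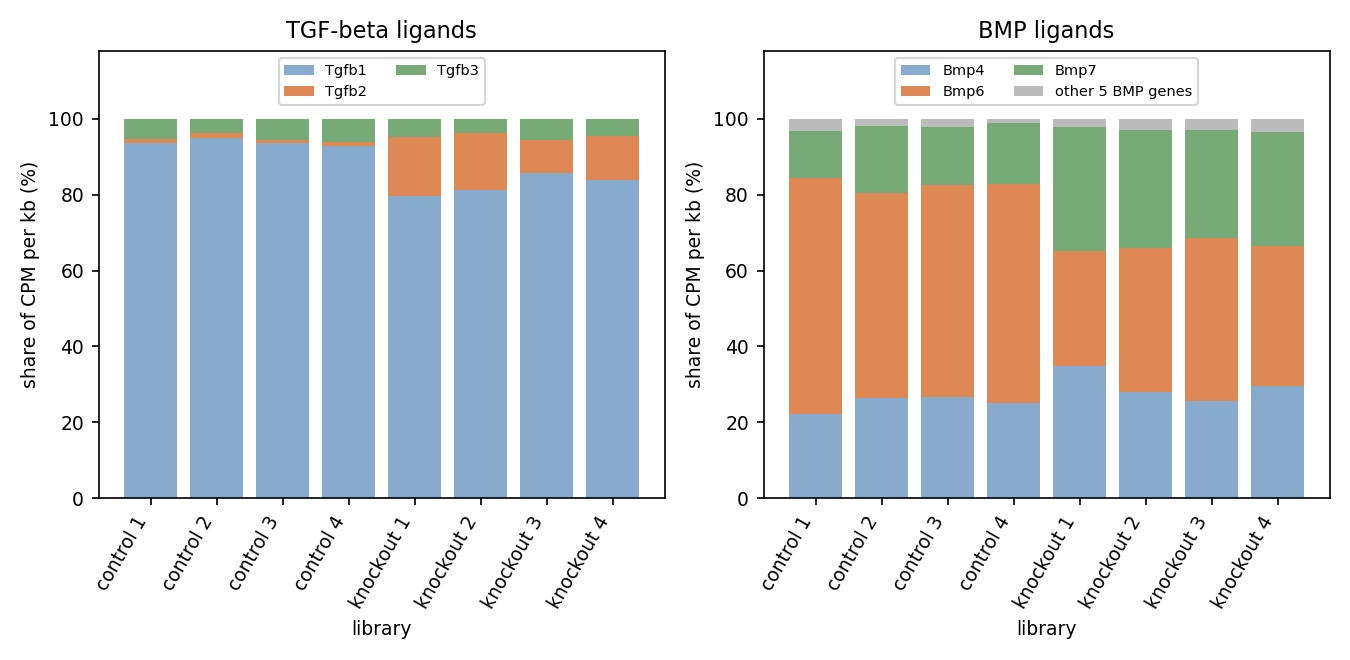
Share of each gene in the summed CPM per kilobase of its family, in percent, for each of the 8 libraries; TGF-beta ligands on the left, BMP ligands on the right, with the 5 rarer BMP genes (Bmp2, Bmp3, Bmp5, Bmp8a, Bmp8b) joined. Tgfb2 is a thin band of 0.899% to 1.42% in controls and 8.76% to 15.4% in knockouts, and the share of Bmp6 is smaller in every knockout (30.5% to 42.9%) than in any control (54.2% to 62.4%), while Bmp7 is at 12.3% to 17.6% in controls and 28.7% to 32.7% in knockouts.

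Of the 7 tested BMP ligands Bmp7 rose, Bmp6 fell and 5 did not pass (28.6% called, against 12.7% of all tested genes). Bmp6, a ligand known for its role in iron regulation, was the most abundant of them in controls, at 143, 113, 127 and 141 CPM, and stood at 51.5, 70.1, 89.9 and 64.9 CPM in knockouts. Every knockout lay below every control. The log2 fold change was -0.92 with an SE of 0.17 and an edgeR adjusted p of 0.00764, with a range of -1.07 to -0.80 over the alternatives. On GRCm38 an exon of Bmp6 overlaps 224 bases of Txndc5 on the other strand. With the unstranded kit (NEBNext Ultra RNA) reads there cannot be told apart. Txndc5 itself had a log2 fold change of 0.31 that did not pass (edgeR adjusted p = 0.168). The part of the overlap in the values of Bmp6 was not tested.

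Bmp7 stood at 34.5, 45, 42.9 and 48.5 CPM in controls and at 67.5, 70.5, 73.8 and 65.2 CPM in knockouts. The knockouts were close together and all above the controls (42.7 ± 5.95 and 69.3 ± 3.73 CPM, SD, n = 4 each). Its log2 fold change was 0.70 with an SE of 0.12 and an edgeR adjusted p of 0.00670, which stayed at or below 0.0305 over the alternatives. Loop of Henle and distal nephron markers also rose; Bmp7 is expressed in distal tubules and podocytes of the adult kidney, and the part of those cells in its rise was not tested. Bmp4 did not pass, at 34.7 to 42.1 CPM in controls and 35.4 to 40.3 CPM in knockouts (a log2 fold change of -0.08 with an SE of 0.11), and a short overlap of 89 bases with Gm15217 on the other strand leaves its reads there uncertain.

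Over all members, the highest means per kilobase in controls were those of Gdf15 (54.1 ± 10.4), Bmp6 (43.7 ± 4.58), Tgfbr2 (30.9 ± 7.79) and Tgfb1 (22.8 ± 3.98 CPM per kilobase; SD, n = 4 each), and the ranges of each neighbouring pair overlapped. Within the BMP ligands (Bmp15 left out), Bmp6 made up 54.2% to 62.4% of the BMP ligands in controls and 30.5% to 42.9% in knockouts, while Bmp7 made up 12.3% to 17.6% and 28.7% to 32.7%. Bmp4 held 22.1% to 26.8% and 25.6% to 34.8%, with overlapping groups. In controls the order was Bmp6, Bmp4, Bmp7, with no overlap between neighbours. In knockouts Bmp6 (23.1 ± 5.32 CPM per kilobase), Bmp7 (18.9 ± 1.02) and Bmp4 (18 ± 1.05; SD, n = 4 each) had overlapping ranges, so no order among the 3 is given. Bmp2 and Bmp3 were far lower, at 0.758 to 1.95 and 2.04 to 7.14 CPM over all libraries, and did not pass (log2 fold changes 0.48 and 0.02). Bmp8a and Bmp15 had 1 to 55 counts per library and did not pass, and Bmp5 and Bmp8b were too low to test (2 to 45 counts per library). Bmp8a and Bmp8b are close paralogs and may share reads.

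Of the GDF ligands 6 were tested: Gdf10 rose, Gdf15 fell and 4 did not pass (33.3% called, against 12.7% of all tested genes). Gdf15, a stress-induced hormone that signals through the receptor GFRAL in the hindbrain, was by mean the most abundant member per kilobase in controls. It stood at 124, 76.9, 99.3 and 100.3 CPM in controls and at 25.2, 13.6, 30.3 and 27.5 CPM in knockouts. The groups stood far apart, and knockout 2 was the lowest of all. The means were 100.1 ± 19.3 and 24.1 ± 7.35 CPM (SD, n = 4 each), with a log2 fold change of -2.05, an SE of 0.24 and an edgeR adjusted p of 0.00146, and the range over the alternatives was -2.18 to -1.85. The injured tubule markers fell in the same libraries, as given above, and their part in the fall of Gdf15 was not tested.

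Gdf10, also called BMP3b, stood at 0.871, 4.19, 1.32 and 5.02 CPM in controls and 16.4, 7.38, 9.76 and 10.2 CPM in knockouts. Controls 1 and 3 were the lowest. Both were also lowest for the summed fibroblast markers (219 and 205 CPM, against 444 and 543 in controls 2 and 4). The same controls were lowest for the proximal tubule markers (1975 and 3036 CPM, against 4579.8 and 5740.2) and the liver markers. They were highest for the injured tubule markers (6385 and 5730.1 CPM, against 3919 and 4135), and the part of any of these was not tested. The log2 fold change was 1.94 with an SE of 0.51 and an edgeR adjusted p of 0.0351, and 3 of the 8 fits that left out 1 library kept the call (adjusted p up to 0.0838). Without control 1 and knockout 3 the adjusted p was 0.0657. Gdf11, a ligand close to myostatin, was at 5.28 to 12.6 CPM in controls and 13.8 to 19.5 CPM in knockouts; the groups did not overlap, yet it did not pass (a log2 fold change of 0.83 with an SE of 0.25 and an adjusted p of 0.0543). DESeq2 (adjusted p = 0.0122) and limma with sample weights (0.0272) called it. Gdf3, Gdf5 and Gdf7 had 0 to 20 counts per library and did not pass, and Gdf6 was too low to test.

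Activins are dimers of inhibin beta subunits. Inhbb, the beta B subunit, stood at 14.5, 9.64, 8.82 and 18.4 CPM in controls and at 4.97, 5.99, 7.02 and 5.13 CPM in knockouts. It fell 2.22-fold (a log2 fold change of -1.15 with an SE of 0.26 and an edgeR adjusted p of 0.0181), although the lowest control and the highest knockout were close, and the call was lost without knockout 4 (adjusted p = 0.0618). Inhba, the beta A subunit, stood at 9.02, 2.19, 2.50 and 1.39 CPM in controls and at 1.69, 0.521, 1.21 and 0.948 CPM in knockouts. Control 1 was far above all others and the groups overlapped (a log2 fold change of -1.79 with an SE of 0.60 and an adjusted p of 0.0765). Without control 1 the log2 fold change of Inhba was -0.90, and DESeq2 called it with all libraries (adjusted p = 0.0158). Inha, the alpha subunit that turns an activin into an inhibin, was at 1.1 to 2.46 CPM over all libraries (log2 fold change 0.54, adjusted p = 0.234). Inhbb made up 70.7% to 95.2% of the 2 beta subunits per kilobase over all 8 libraries, with no separation of the groups.

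**Figure D3:**
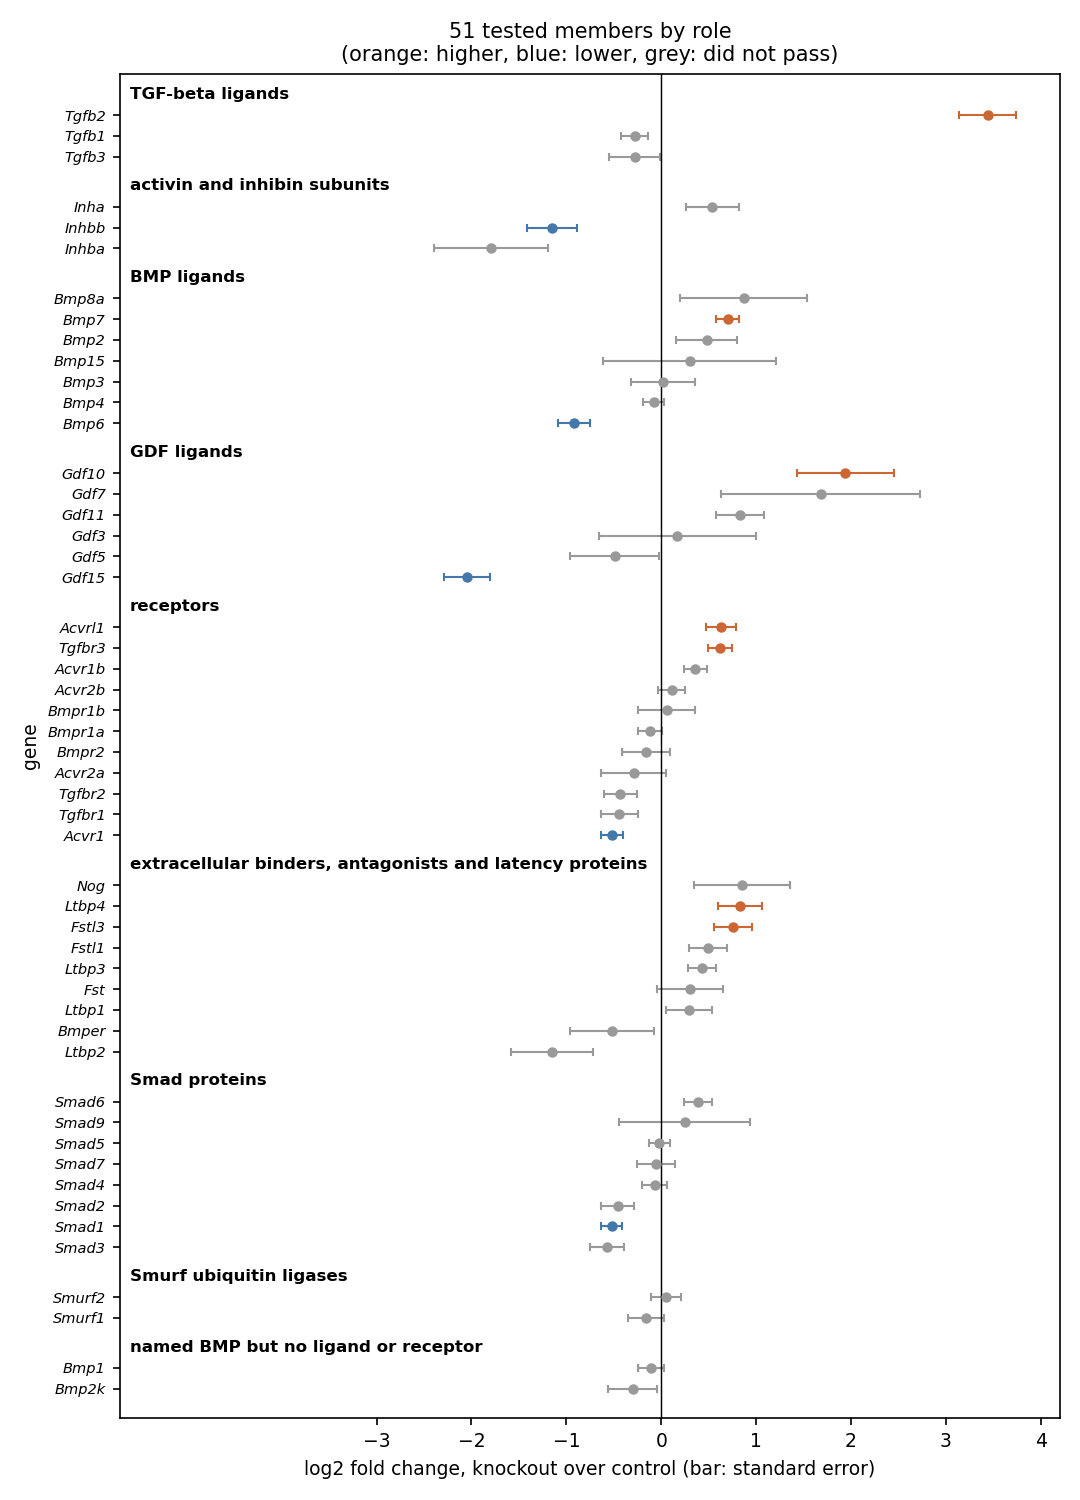
Log2 fold change, knockout over control, of the 51 tested members by role; the bar is the standard error. Orange marks the 7 that rose, blue the 5 that fell and grey the 39 that did not pass. Tgfb2 (3.44) lies farthest to the right and Gdf15 (-2.05) farthest to the left, and both directions occur among the BMP ligands, the GDF ligands and the receptors.

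Of 11 receptor genes Tgfbr3 and Acvrl1 rose, Acvr1 fell and 8 did not pass (27.3% called, against 12.7% of all tested genes). Tgfbr3, which encodes betaglycan, a co-receptor that presents TGF-beta2 and binds inhibin, stood at 21.0, 23.0, 22.7 and 17.5 CPM in controls and at 37.9, 29.8, 31.3 and 30.4 CPM in knockouts (a log2 fold change of 0.62 with an SE of 0.13 and an edgeR adjusted p of 0.0160). Every knockout lay above every control, and all 8 fits without 1 library kept the call, while the fit without control 1 and knockout 3 gave an adjusted p of 0.0537. Acvrl1, the endothelial type I receptor ALK1, stood at 18.9, 21.6, 13.5 and 21.4 CPM in controls and 29.7, 27.1, 30.0 and 30.3 CPM in knockouts (a log2 fold change of 0.63 with an SE of 0.16 and an adjusted p of 0.0262). Control 3 was the lowest for Acvrl1 and also for the summed endothelial markers (204 CPM, where controls 1, 2 and 4 had 371 to 416). It was also the lowest control for the fibroblast, macrophage, neutrophil, podocyte and liver markers, and the part of any of these was not tested. The call of Acvrl1 was lost without knockout 2, 3 or 4 and without control 1 and knockout 3 together (adjusted p up to 0.0887).

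Acvr1, the type I receptor ALK2 of BMP signals, was lower in every knockout, at 21.6, 19.4, 20.2 and 18.5 CPM in controls and 12.8, 14.3, 14.4 and 14.1 CPM in knockouts. The change was small and even across libraries (a log2 fold change of -0.52 with an SE of 0.12 and an edgeR adjusted p of 0.0202), and the call was lost without control 3, knockout 2 or knockout 4 and without control 1 and knockout 3 together (adjusted p up to 0.0778). The signalling receptors of TGF-beta did not pass. Tgfbr2, the type II receptor and the most abundant receptor per kilobase, stood at 195, 113, 159.5 and 123 CPM in controls and at 96.7, 105, 112 and 124 CPM in knockouts (a log2 fold change of -0.43 with an SE of 0.17 and an adjusted p of 0.128). Tgfbr1, the type I receptor ALK5, stood at 97.7, 51.9, 70.5 and 49.1 CPM in controls and at 45.6 to 56.7 CPM in knockouts (a log2 fold change of -0.44 with an SE of 0.20 and an adjusted p of 0.189). Control 1 was the highest library for both, followed by control 3, while controls 2 and 4 lay within the range of the knockouts.

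Once a trend over gene length was removed, Tgfbr2 passed (log2 fold change -0.44, adjusted p = 0.0454). The other 6 receptors, Acvr1b, Acvr2a, Acvr2b, Bmpr1a, Bmpr1b and Bmpr2, had log2 fold changes between -0.29 and 0.36. Among the 3 TGF-beta receptors the share of Tgfbr3 per kilobase was 5.72% to 10.5% in controls and 12.8% to 18.3% in knockouts, and that of Tgfbr2 65.6% to 70.0% and 59.4% to 66.6%, where the ranges overlap.

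Of 9 tested genes for extracellular binders and latency proteins Ltbp4 and Fstl3 rose and 7 did not pass (22.2% called, against 12.7% of all tested genes). Ltbp4, which ties latent TGF-beta to elastic fibres, stood at 23.0, 41.4, 22.8 and 45 CPM in controls and 67.4, 52.0, 54.4 and 61.7 CPM in knockouts (a log2 fold change of 0.83 with an SE of 0.23 and an edgeR adjusted p of 0.0407). Controls 1 and 3 were again lowest, as for Gdf10 and the fibroblast, proximal tubule and liver markers, whose part was not tested. The call was lost in 10 of the 18 alternatives, among them the removal of the length trend and 6 of the 8 fits without 1 library (adjusted p up to 0.105). Fstl3, a secreted antagonist of activin and myostatin, stood at 8.51, 6.57, 8.59 and 8.32 CPM in controls and 9.18, 15.8, 14.2 and 14.8 CPM in knockouts (a log2 fold change of 0.76 with an SE of 0.20 and an adjusted p of 0.0328). Knockout 1 was only just above the controls, and the call was lost in 6 of the 8 fits without 1 library (adjusted p up to 0.0961). Fstl3 overlaps 1157 bases of Prss57 on the other strand, a gene with 14 counts in all.

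Fstl1, the most abundant of these genes per kilobase, was at 32.2 to 62.1 CPM in controls and 60.2 to 86.3 CPM in knockouts and did not pass (a log2 fold change of 0.49 with an SE of 0.20 and an adjusted p of 0.126). Ltbp3 had a log2 fold change of 0.43 (adjusted p = 0.0856) and Ltbp1 one of 0.29, and Ltbp2 stood at 0.504 to 2.61 CPM over all libraries with a log2 fold change of -1.15 (adjusted p = 0.107). Of the antagonists, Fst, which encodes follistatin, was at 4.21 to 12.7 CPM and Nog, which encodes the BMP antagonist noggin, at 0.356 to 3.05 CPM over all libraries, with log2 fold changes of 0.30 and 0.85 that did not pass. Grem1, another BMP antagonist, had 0 to 32 counts per library and was not tested, and Bmper had 8 to 27.

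Of 8 Smad genes Smad1 fell and 7 did not pass (12.5% called, near the 12.7% of all tested genes). Smad1, which carries BMP signals, stood at 27.6, 22.8, 26.6 and 26.1 CPM in controls and 18.9, 17.6, 17.0 and 18.5 CPM in knockouts, with every knockout below every control (a log2 fold change of -0.52 with an SE of 0.11 and an edgeR adjusted p of 0.0165). The call was lost without knockout 2 or knockout 3 and without control 1 and knockout 3 together (adjusted p up to 0.0791). Smad5, which carries the same signals, was at 69.3 to 73.4 CPM in controls and 61.1 to 79.6 CPM in knockouts (a log2 fold change of -0.02 with an SE of 0.11). Smad9 had 2 to 57 counts per library. Per kilobase Smad1 made up 43.6% to 47.1% of these 3 genes in controls and 33.6% to 42.1% in knockouts.

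The Smads of TGF-beta and activin signals gave lower means that did not pass. Smad3 stood at 107, 58.2, 86.8 and 68.0 CPM in controls and 47.4, 52.8, 58.9 and 56.2 CPM in knockouts (a log2 fold change of -0.57 with an SE of 0.18 and an edgeR adjusted p of 0.0621). Smad2 stood at 61.6, 34.1, 54.1 and 44.4 CPM in controls and 30.6, 34.4, 38.5 and 37.6 CPM in knockouts (a log2 fold change of -0.46 with an SE of 0.17 and an adjusted p of 0.112). In both, control 2 was the lowest control and reached into the range of the knockouts. Without control 2 both passed (adjusted p = 0.0228 for Smad3 and 0.0265 for Smad2), as they did once the length trend was removed (0.0170 and 0.0153). Of the 18 alternatives Smad3 passed in 4 and Smad2 in 3. DESeq2 called 2 of the 8 Smad genes lower, where edgeR called 1 (DESeq2 called 20.7% of all tested genes, in either direction).

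Smad4, the partner of all receptor-activated Smads, had a log2 fold change of -0.07 (SE 0.13), and Smad7, the inhibitor induced by TGF-beta, one of -0.06 (SE 0.20); the sign of both turned without control 1 (0.04 and 0.07), so no direction is given. Smad6, the inhibitor of BMP signals, was at 11 to 15.8 CPM in controls and 16.2 to 21.1 CPM in knockouts; the groups did not overlap and it did not pass (a log2 fold change of 0.39 with an SE of 0.15 and an adjusted p of 0.120). Smurf1 and Smurf2, which tag receptors and Smads for breakdown, had log2 fold changes of -0.16 and 0.05 (SE 0.19 and 0.16), and Bmp1 and Bmp2k of -0.11 and -0.30. The sign of Smurf2 turned without control 2 (-0.06), control 4 or knockout 3.

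Beyond the members, 59 other genes of the pathway were examined, of which 54 could be tested: 4 rose, 7 fell and 43 did not pass (20.4% called, against the 12.7% of all genes). Without control 1 and knockout 3 together 2 rose and 6 fell (6.95% of all genes passed, in either direction). The count that rose was 1 without control 3 (6.96% of all genes), knockout 1 (11.5%) or knockout 4 (5.98%) and 2 without knockout 3 (7.5%). The count that fell was 4 without knockout 2 (6.92%) and 3 without knockout 4. The fallen genes were mostly transcriptional targets, of which 5 of 13 fell and 1 rose. Over all tested genes 6.28% were called lower and 6.45% higher. Tgfbi, a matrix protein gene named for its induction by TGF-beta, stood at 134, 66.5, 55.4 and 75.3 CPM in controls and 41.5, 35.6, 39.7 and 36.8 CPM in knockouts. Control 1 was the highest by far, but the lowest control was still above all knockouts (a log2 fold change of -1.11 with an SE of 0.24 and an edgeR adjusted p of 0.0166). Klf10, an early response factor, fell 1.68-fold and Pmepa1, a feedback inhibitor, 1.40-fold. Tgfbi lost its call without knockout 2 or knockout 4 (adjusted p up to 0.0559) and Pmepa1 in 6 of the 8 fits without 1 library (up to 0.112), while Klf10 kept its call in all 8. Ccn2, which encodes connective tissue growth factor, had a log2 fold change of -1.13 and did not pass (adjusted p = 0.0522), with knockout 3 (68.9 CPM) inside the range of the controls. Col1a1, a collagen chain, had a log2 fold change of 0.75 (adjusted p = 0.207).

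The Id genes, early targets of BMP signals, split. Id1 stood at 64.5, 29.4, 43.6 and 44.2 CPM in controls and 25.9, 23.4, 16.1 and 18.8 CPM in knockouts (a log2 fold change of -1.11 with an SE of 0.23 and an edgeR adjusted p of 0.0143). Id3 stood at 111, 77.2, 80.1 and 115 CPM in controls and 62.6, 40.9, 37.7 and 43.0 CPM in knockouts (a log2 fold change of -1.06 with an SE of 0.19 and an adjusted p of 0.00844). In both every knockout lay below every control. Id4 went the other way, from 10.7 to 12.7 CPM in controls to 13.9 to 27.6 CPM in knockouts (a log2 fold change of 0.79 with an SE of 0.20 and an adjusted p of 0.0286), and Id2 did not pass (log2 fold change -0.17). Id3 passed in all 18 alternatives, Id1 in all but the fit without knockout 4 (adjusted p = 0.0524), and Id4 lost its call in 7, 6 of them fits without 1 library. Id4 shares 63 bases with A330033J07Rik on the other strand.

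**Figure D4:**
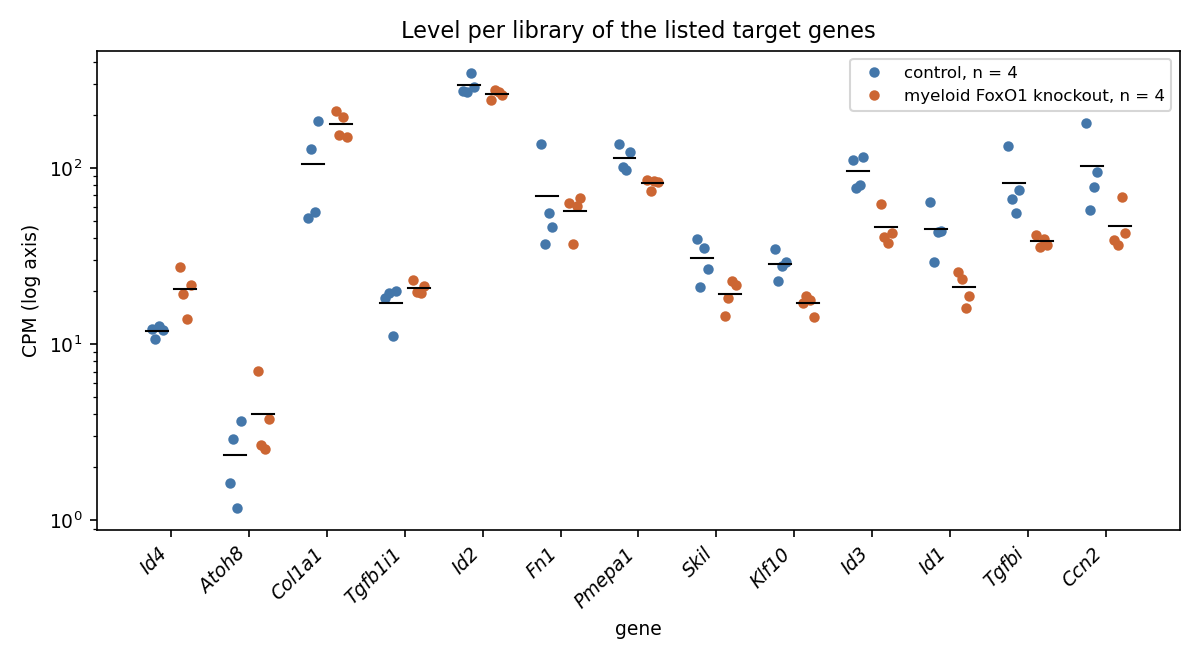
Level in CPM (log axis) of 13 tested target genes of TGF-beta and BMP signals, ordered by fold change; points are libraries (blue controls, orange knockouts) and lines group means. Id4 at the left end is the 1 gene that rose, and Tgfbi, second from the right, is at 55.4 to 134 CPM in controls and 35.6 to 41.5 CPM in knockouts.

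Among 26 tested extracellular modulators Sostdc1 and Chrdl1 rose and 24 did not pass (7.69% called, below the 12.7% of all tested genes). Sostdc1, a secreted BMP and Wnt antagonist known from the distal nephron, stood at 28.9, 109, 76.0 and 74.9 CPM in controls and 263, 219, 189.8 and 267 CPM in knockouts (a log2 fold change of 1.70 with an SE of 0.33 and an edgeR adjusted p of 0.00977), and passed in all 18 alternatives. Distal tubule and collecting duct markers rose in the same libraries, and their part was not tested. Chrdl1, a chordin-like BMP antagonist, stood at 0.225, 2.53, 1.63 and 0.648 CPM in controls and 8.38, 2.92, 7.28 and 7.32 CPM in knockouts; knockout 2 was just above control 2, and the log2 fold change of 2.36 (adjusted p = 0.0321) was 2.95 without control 2. The call of Chrdl1 was lost in 5 of the 8 fits without 1 library (adjusted p up to 0.0824) and without control 1 and knockout 3 together (0.0606). Among 15 intracellular regulators Tgif1, a repressor that binds Smads, fell 2.59-fold, from 33.8 to 67.7 CPM in controls to 15.4 to 19.2 CPM in knockouts (a log2 fold change of -1.38 with an SE of 0.21 and an adjusted p of 0.00417). Fkbp1a, whose product binds type I receptors, fell 1.46-fold, and Tab1, an activator of the kinase TAK1, rose 1.36-fold. Both lost their call in most fits without 1 library. The 3 called regulators are 20% of the 15, against 12.7% of all tested genes.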

How the data were processed

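Whole-kidney RNA was profiled by RNA-seq in 4 control and 4 knockout libraries. The authors deposited raw counts per gene with a gene length column (other values, in bases). Per the submitters' processing notes, the build was mm39 and the tools included HISAT2 2.2.1 and Salmon 1.10.2, with Trim Galore 0.6.2 and FastQC for the reads; which tool made the counts, and with which annotation and filters, is not given in the sources used here. Genes were taken by symbol, since beyond the first rows the deposited Ensembl identifiers do not belong to the symbols beside them. Counts from 1 to 20 were even in 68.7% to 70.9% of cases, so mates of a pair may have been counted separately; depth of 29044405 to 35530421 counts gives precision for counting error only.

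Differences were tested with edgeR 4.0.16 under R 4.3.3 (filterByExpr with minimum count 10, TMM, glmQLFit and glmQLFTest, no covariate, all 8 libraries), with Benjamini-Hochberg adjustment over 15000 genes and a threshold of 0.05. Standard errors derive from the F statistic. CPM used TMM factors; log2 CPM a prior count of 2. The script was tested on simulated data. Alternatives were other size factors, DESeq2 1.42.0, limma 3.58.1 (voom with sample weights), other filters, halved counts, length and GC trends, a replicate block, and libraries left out. No count column was left unmapped.

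The members, gene lists and the rule for named genes (fixed genes of the family, all members and up to 12 pathway genes that passed, members whose groups did not overlap, the most abundant of each role) were chosen with earlier results of these data known. Other genes named to spell out a count were chosen after their values were seen. A gene of the pathway list is not reported here and is left out of that list's counts.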

Additional observations from a re-analysis of the deposited data

Results flagged for a closer look

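In 6 of 74 groups of 4 libraries examined (named genes, CPM) 1 library stood apart from the other 3 by Dixon's test at the 95% level; about 1 in 20 groups does so by chance. Tgfb1 in control 3 was at 36.7 CPM, where the other controls had 52.5 to 55.1. Inhba in control 1 was at 9.02 CPM, against 1.39 to 2.50. Fstl3 in control 2 was at 6.57 CPM, against 8.32 to 8.59. Acvr1 in knockout 1 was at 12.8 CPM, against 14.1 to 14.4 in the other knockouts. Fkbp1a in knockout 1 was at 338 CPM, against 243 to 249. Pmepa1 in knockout 2 was at 73.9 CPM, against 83.7 to 85.1.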

How the results depend on the processing

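The count of members that rose, 7 in the analysis as reported, was 2 with the replicate block and 2 without control 1 and knockout 3 together, and 3 to 8 over the fits that left out 1 library. The count that fell, 5, was 8 with the length trend removed and 8 with length and GC trends removed (an alternative chosen after seeing the data), 2 with the replicate block, 3 without control 1 and knockout 3, and 3 to 7 over the fits without 1 library. Pathway genes that rose, 4, were 8 in DESeq2, 1 with the replicate block, 2 without control 1 and knockout 3, and 1 to 5 without 1 library; those that fell, 7, were 4 with the replicate block and 3 to 8 without 1 library. Over all genes, 967 higher and 942 lower became 1605 and 1504 in DESeq2, 447 and 418 with the replicate block, 549 and 496 without control 1 and knockout 3, and 457 to 1001 and 450 to 983 without 1 library; the lower count was 1447 in limma and 1422 with length and GC trends removed. Same-numbered controls and knockouts did not deviate together (correlations of -0.198, 0.0358, 0.153 and -0.161). Such correlations cannot exclude a pairing by the numbers, and the labels state none. The numbers used for these pairs and for the replicate block are those of the sample titles. The deposited column names number the knockouts differently. The causes of these shifts were not tested, and the fits with libraries left out also hold fewer samples.

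Of 702 values of named genes under the alternatives 588 kept sign and side of the threshold, 87 lost the call, 15 gained it and 12 changed sign. The sign changes were all of values that did not pass: Smad4 (0.02 in limma, 0.04 without control 1 and knockout 3, -0.15 to 0.04 without 1 library), Smad7 (0.09 in limma, 0.07 without control 1 and knockout 3, -0.23 to 0.07 without 1 library), Smurf2 (-0.06 to 0.15 without 1 library) and Lyz2 (-0.69 to 0.26 without 1 library). Members with under 60 counts in every library, such as Gdf3, Gdf5, Gdf7, Bmp8a, Bmp15, Bmper and Smad9, limit what this depth can show.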
